A study of Rattus norvegicus and Ovis aries with 113 samples.

Results

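The 9 genes described here encode signals and receptors of the reproductive neuroendocrine axis: KISS1, KISS1R, TAC3, TACR3, GNRH1, GNRHR, NPVF, PRLR and OXTR. They were found in the tables by gene symbol. All 9 were found among 38675 genes in the rat tables, and 8 of the 9 among 31304 genes in the sheep tables, where PRLR was not analysed here. RNA sequencing covered 113 libraries. In sheep, 55 libraries came from 5 post-pubertal males (687, 688, 690, 694 and 699), each giving sperm and 10 dissections of the same hemisphere: basal ganglia, cerebellum, pons, hippocampus, and the entorhinal, frontal, prefrontal, motor, posterior parietal and visual cortices. The hypothalamus was not among the sheep dissections. In rat, 58 libraries came from Sprague Dawley animals: whole brain and sperm from the seminal fluid of 15 post-pubertal males, and whole brain and ovary from 14 females. No animal was treated. The animals' exact ages and the stage of the oestrous cycle were not given in the sources used here.

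GnRH, encoded by GNRH1, is released by scattered hypothalamic neurons and acts on GNRHR, a receptor of pituitary gonadotropes that is also made in the ovary of rodents. Kisspeptin (KISS1) excites GnRH neurons through KISS1R, neurokinin B (TAC3) acts through TACR3 on kisspeptin neurons, and RFRP peptides (NPVF) inhibit GnRH neurons. PRLR and OXTR are the receptors for prolactin and oxytocin. Prolactin maintains the corpus luteum in rodents and enters the brain across the choroid plexus, where PRLR is abundant. Oxytocin acts on uterus, ovary and many forebrain neurons.

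Sequences upstream of annotated starts are shown for 5 rat genes on which the tissue comparisons turn: Gnrhr, Prlr and Oxtr, which were high in the ovary, and Tacr3 and Kiss1r, which were high in the brain. RefSeq (build GRCr8) held upstream windows for 7 of the 9 genes, 8 windows in all because Prlr has separate start sites. Tac3 and Gnrh1 had no entry. Each sequence is the 250 bases before an annotated start, read 5′ to 3′ on the gene's own strand. The Oxtr window and both Prlr windows lie inside the annotated span of their own gene. They therefore precede a start within the gene and not its outermost 5′ end. Capitals mark matches, on either strand, to 4 motifs. The half-site of NR5A receptors such as SF-1 was searched as AAGGTCA and the site of AP-1 factors as TGANTCA. The half-site of the cyclic AMP response element was searched as TGACG and the TATA box as TATAAA. No 2 of these motifs overlapped in the windows shown.
Gnrhr, chr14:22211416-22211665, plus strand: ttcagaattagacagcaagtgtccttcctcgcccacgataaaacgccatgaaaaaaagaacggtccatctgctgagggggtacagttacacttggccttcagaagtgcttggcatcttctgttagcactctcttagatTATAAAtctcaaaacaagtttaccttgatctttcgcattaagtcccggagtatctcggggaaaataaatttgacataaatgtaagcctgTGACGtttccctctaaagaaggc
Prlr, first start, chr2:60861515-60861764, plus strand: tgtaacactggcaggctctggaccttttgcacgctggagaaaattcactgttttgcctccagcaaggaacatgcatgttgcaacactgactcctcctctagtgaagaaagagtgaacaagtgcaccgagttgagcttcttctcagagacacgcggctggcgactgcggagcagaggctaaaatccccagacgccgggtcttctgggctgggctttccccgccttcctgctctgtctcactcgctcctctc
Prlr, second start, chr2:60909409-60909658, plus strand: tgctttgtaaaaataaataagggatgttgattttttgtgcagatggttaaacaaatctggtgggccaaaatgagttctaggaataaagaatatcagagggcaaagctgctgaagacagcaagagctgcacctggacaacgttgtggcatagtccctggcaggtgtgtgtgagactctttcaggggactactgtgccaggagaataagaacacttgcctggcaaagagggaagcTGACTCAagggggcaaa
Oxtr, chr4:147170500-147170749, minus strand: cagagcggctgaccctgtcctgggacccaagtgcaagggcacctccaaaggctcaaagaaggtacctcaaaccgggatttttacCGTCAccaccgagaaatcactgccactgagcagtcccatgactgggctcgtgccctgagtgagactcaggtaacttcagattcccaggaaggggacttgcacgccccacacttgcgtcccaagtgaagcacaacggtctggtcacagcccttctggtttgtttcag
Tacr3, chr2:225940247-225940496, plus strand: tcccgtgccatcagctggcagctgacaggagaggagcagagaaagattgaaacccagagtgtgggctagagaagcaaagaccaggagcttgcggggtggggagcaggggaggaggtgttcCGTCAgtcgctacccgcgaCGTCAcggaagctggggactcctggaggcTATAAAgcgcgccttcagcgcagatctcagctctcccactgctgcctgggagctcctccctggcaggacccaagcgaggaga
Kiss1r, chr7:10439425-10439674, minus strand: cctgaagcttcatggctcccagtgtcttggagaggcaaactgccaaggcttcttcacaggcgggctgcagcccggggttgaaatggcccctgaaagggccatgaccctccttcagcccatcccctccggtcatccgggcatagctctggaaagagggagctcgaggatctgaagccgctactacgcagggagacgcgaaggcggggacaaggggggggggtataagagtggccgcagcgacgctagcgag
The Gnrhr window held TGACG 23 bases and TATAAA 112 bases before the start. The second Prlr window held TGACTCA, a match to TGANTCA, 17 bases before it, and the first held no match. Oxtr held CGTCA, the reverse complement of TGACG, 166 bases upstream. Tacr3 held CGTCA at 130 and 111 bases and TATAAA at 82 bases, and Kiss1r held none of the 4 motifs. Among all 33469 rat windows of that length, 3.99% held the NR5A half-site, 6.34% the AP-1 site, 18.2% the cyclic AMP half-site and 12.9% the TATA box. GC content was 42.4% for Gnrhr, 55.2% and 45.6% for the Prlr starts, 56.4% for Oxtr, 62.0% for Tacr3 and 62.8% for Kiss1r, beside a median of 51.2% over all windows. These matches describe letters in the windows and not binding.

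Values are given as counts per 1000000 counts of a library (CPM), with library totals scaled by trimmed mean of M-values (TMM) factors. They compare libraries for one gene and not one gene with another, since no gene lengths were used. A gene was called at an edgeR Benjamini-Hochberg adjusted p below 0.05, over all genes tested, together with a change of 1 or more on the log2 scale, in either direction. The test between sexes had no fold minimum. In units of 1000000 counts, the library totals were 46.7 to 72.4 in sheep brain and 13.7 to 65.15 in sheep sperm, where TMM factors of 0.1236 to 0.3431 left effective sizes of 3.347 to 13.89. In the same units, rat totals were 38.16 to 119.2 in brain, 50.49 to 60.27 in ovary and 13.71 to 65.11 in sperm. Rat brains 1 (female) and 4 (male) stood apart, with effective sizes of 8.229 and 12.79 beside at least 44.17 in the other 27 brains. Rat sperm libraries 16 and 17 held 0 counts for 8 of the 9 genes.

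The labelled tissues were checked against marker genes. The summed CPM of 5 neuronal genes was 3246 to 4872 in rat brain and 433.1 to 3947 in sheep brain, against 0.05442 to 6.971 in rat sperm and 2.376 to 109.4 in sheep sperm. Rat ovaries carried granulosa genes (1077 to 4890 summed CPM), luteal genes (6401 to 16150) and oocyte genes (28.21 to 133.5). The 10 late spermatid genes summed to 384.4 to 27850 CPM in rat sperm and 213.4 to 7854 in sheep sperm. Sheep sperm also held 12780 to 141300 summed CPM of 5 neutrophil genes and 8420 to 161400 of squamous epithelial genes, against at most 1.374 and 2.618 in sheep brain. In these bulk samples, fewer cells of a type and less RNA per cell cannot be told apart.

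In the rat ovary, 3 receptor genes were higher than in the female brain (Gnrhr, Prlr and Oxtr) and 3 genes were lower (Tac3, Tacr3 and Kiss1r). This comparison asked how the gonad and the brain of the same sex differ. Of the 9 genes, 7 passed the low-count filter and 6 of those 7 were called, beside 56.9% of 20801 genes tested in either direction (27.7% higher and 29.2% lower). Kiss1 was tested and not called, and Gnrh1 and Npvf did not pass the filter.

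Gnrhr, the receptor that triggers gonadotropin release in the pituitary, was present at 61.93 to 167.2 CPM in the 14 ovaries, with a median of 93.47 and a mean of 96.21 ± 26.95 (SD, n = 14). The lowest ovary held 4035 Gnrhr counts and the highest 11266. The 14 female brains ranged from 0 to 0.2431 CPM, with a median of 0.06752, and held 53 Gnrhr counts in all. Every ovary was above every brain, and the group means differed 1274-fold (log2 fold change 10.43, SE 0.249, edgeR adjusted p = 2.81e-26). Gnrhr also varied the least between ovaries of the 3 receptors that were higher, with a coefficient of variation of 28.02% beside 45.54% for Prlr and 107.5% for Oxtr. Rat Gnrhr lies on chromosome 14 from 22211666 to 22229654 (GRCr8).

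Prlr, the prolactin receptor (chromosome 2, 60861391 to 61051883), was 21.36 to 112.5 CPM in ovary, with a median of 54.49 and a mean of 55.43 ± 25.24 (SD, n = 14). In the female brain it was 0.2168 to 1.947 CPM, with a median of 0.563 and a mean of 0.6609 ± 0.4701 (SD, n = 14). The groups did not overlap, and ovary exceeded brain by 6.35 on the log2 scale (SE 0.331, edgeR adjusted p = 1.42e-17). The ovaries of rats 21, 22, 23 and 25 lay between 21.36 and 29.27 CPM, and the other 10 at 52.37 CPM or above.

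Oxtr, the oxytocin receptor (chromosome 4, 147154374 to 147171723), was higher in ovary on average but spread far more widely between animals. Ovarian values ran from 1.518 CPM in rat 23 to 89.73 CPM in rat 24, a 59.12-fold range, with a median of 13.82 and a mean of 24.42 ± 26.25 (SD, n = 14). The female brain was narrow, from 1.337 to 3.473 CPM with a median of 2.297. The ovaries of rats 18, 23 and 25 lay within the range of the brains and the other 11 above it. On the log2 scale ovary exceeded brain by 3.36 (SE 0.475, edgeR adjusted p = 1.26e-07).

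Tac3 encodes neurokinin B and Tacr3 its receptor, and both were lower in ovary. Tac3 was 4.374 to 12.93 CPM in female brain (median 8.598) and 0.3413 to 4.527 CPM in ovary (median 2.227). Only the top of the ovarian range met the bottom of the brain range, and Tac3 fell by 2.10 on the log2 scale (SE 0.254, edgeR adjusted p = 6.32e-09). Tacr3 was 1.524 to 7.733 CPM in female brain (median 5.25) and 0 to 0.1399 CPM in ovary, where 5 of 14 libraries held no count. The Tacr3 groups did not overlap, and the fitted log2 change was −6.79 (SE 0.375, edgeR adjusted p = 6.37e-17).

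For the kisspeptin pair, the receptor differed and the ligand did not pass the test. Kiss1r was 1.805 to 3.986 CPM in female brain (median 2.646) and 0.01487 to 0.1448 CPM in ovary (median 0.04686). These groups were separate, and the fitted log2 change was −5.45 (SE 0.223, edgeR adjusted p = 3.0e-20). Kiss1 was 0.0423 to 0.4147 CPM in female brain (median 0.2422) and 0.05935 to 0.7484 CPM in ovary (median 0.2297), so that the groups overlapped. Its log2 fold change was 0.57 (SE 0.372, edgeR adjusted p = 0.145).

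Gnrh1 and Npvf, the ligands that drive and inhibit the axis, were scarce in ovary. Gnrh1 was 0.01569 to 0.2185 CPM in ovary (91 counts in all) and 0.0423 to 0.2431 CPM in female brain (99 counts), overlapping throughout. In GRCr8 a long non-coding RNA gene overlaps Gnrh1, so its counts are uncertain. Npvf was at 0 in 7 of 14 ovaries and at most 0.1041 CPM there, against 0.0784 to 3.405 CPM in female brain (median 0.4269).

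**Figure D1:**
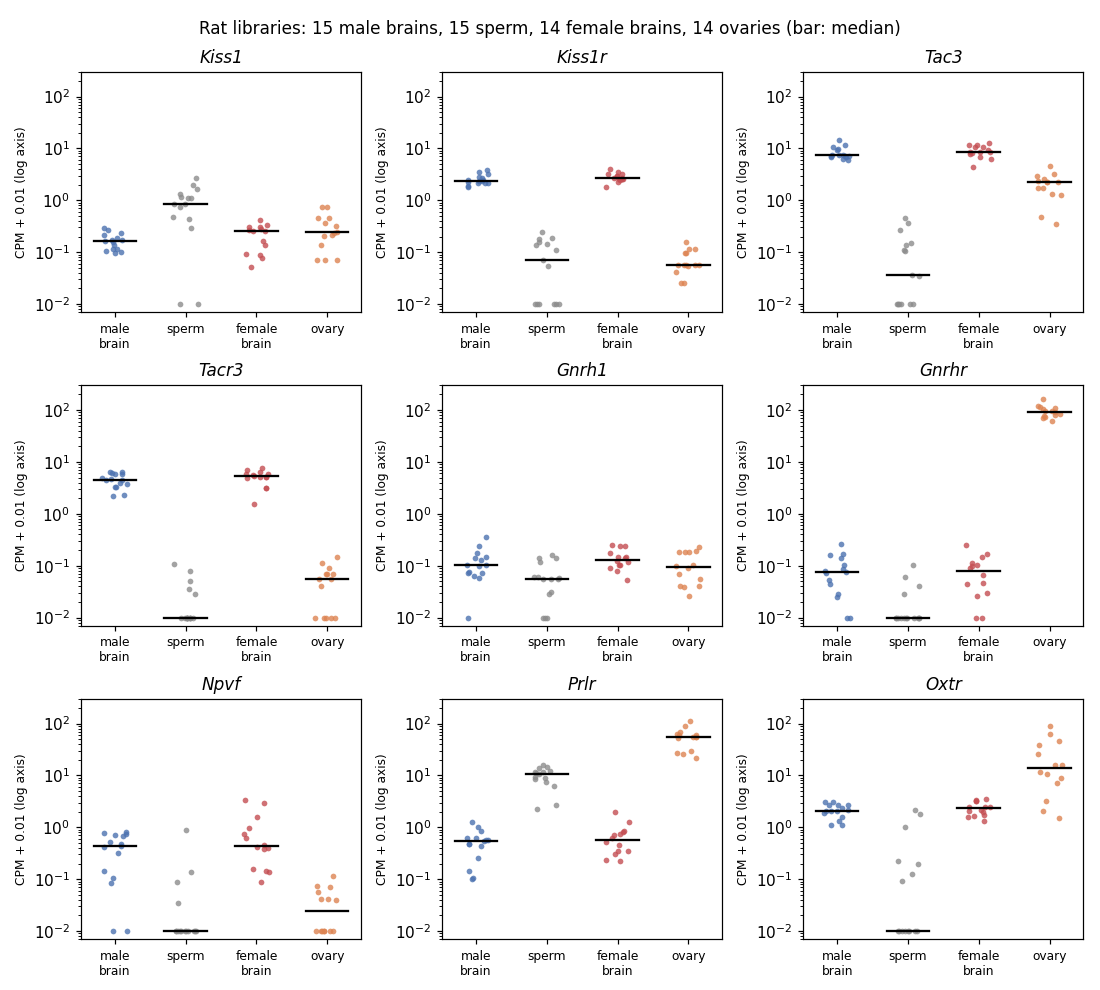
CPM + 0.01 on a log axis for each of the 9 genes in every rat library (points; 15 male brains, 15 sperm, 14 female brains and 14 ovaries), with the median of each group as a bar. Gnrhr and Prlr stand apart in the ovary, Prlr is also above the brains in sperm, and Kiss1r, Tac3 and Tacr3 are highest in both groups of brains.

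The fixed lists of other genes of the axis were read in the same fit. Of all genes tested there, 27.7% were called higher in ovary and 29.2% lower. Of 12 other neuropeptide or hormone genes tested, 0 were higher in ovary and 11 lower. Tac1, which encodes substance P and neurokinin A, was 0.02397 ± 0.02508 CPM in ovary and 36.64 ± 12.75 CPM in female brain (SD, n = 14 each). Of 13 other receptors, 5 were higher and 7 lower. Of the 3 genes tested among gonadotropins and their receptors, 2 were higher: Lhcgr, the LH receptor, at 344.2 ± 238.0 CPM in ovary against 0.09838 ± 0.06252 in brain, and Fshr, the FSH receptor, at 7.967 ± 4.252 against 0.01422 ± 0.01586. The other, Cga, which encodes the subunit shared by LH and FSH, was lower, at 0.3552 ± 0.7744 CPM against 1.531 ± 2.452 (edgeR adjusted p = 0.0234). Of 5 steroid receptor genes, 3 were higher, among them Esr1, which encodes oestrogen receptor alpha, at 76.24 ± 23.32 CPM against 2.5 ± 0.8807. Of 16 signalling genes downstream of these receptors, 6 were higher and 6 lower. Of 18 genes linked to GnRH neuron development or the timing of puberty, 2 were higher and 8 lower.

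Across the 14 ovaries, Prlr moved with marker genes of luteal cells and, by r, of theca cells. The log2 Prlr level and the log2 summed level of 5 luteal genes had r = 0.879 (permutation p = 2e-05, 0.00051 after Benjamini-Hochberg adjustment) and rho = 0.842 (permutation p = 0.00023, adjusted 0.00586), with r = 0.782 without the 2 ovaries farthest from the luteal median. Against 3 theca genes, Prlr had r = 0.941 (permutation p = 2e-05, adjusted 0.00051) and rho = 0.705 (permutation p = 0.00617, adjusted 0.0787), with r = 0.914 without the 2 farthest. Lhcgr belongs to both marker lists, so the luteal and theca sums are not separate measures. With granulosa genes Prlr showed no relation past the threshold. There r was 0.422 (permutation p = 0.135, adjusted 0.286) and rho 0.266 (permutation p = 0.358, adjusted 0.508), with r = 0.156 without the 2 farthest. Each p came from 100000 permutations, and the adjustment covered 51 relations of these genes with marker sums or with each other.

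Tac3 ran the other way across the ovaries. Its level against the theca sum had r = −0.70 (permutation p = 0.00577, adjusted 0.049) and rho = −0.763 (permutation p = 0.00227, adjusted 0.0386), with r = −0.636 without the 2 farthest. Tac3 against Gnrhr had r = −0.718 (permutation p = 0.00389, adjusted 0.0397) but rho = −0.587 (permutation p = 0.0307, adjusted 0.174), and r was −0.379 without the 2 farthest ovaries, so this relation rests on those 2. Oxtr was related to none of the sums past the threshold: r was 0.226 for luteal genes (permutation p = 0.44, adjusted 0.575), with rho = 0.275 (permutation p = 0.341, adjusted 0.508), although r was 0.672 without the 2 ovaries farthest from the luteal median. For granulosa genes Oxtr had r = −0.587 (permutation p = 0.0266, adjusted 0.0968) and rho = −0.648 (permutation p = 0.014, adjusted 0.119), and r = −0.642 without the 2 farthest. The highest r of Oxtr was with blood genes, at 0.662 (permutation p = 0.00991, adjusted 0.0632), with rho = 0.49 (permutation p = 0.0782, adjusted 0.274) and r = 0.687 without the 2 farthest. The ovarian marker sums, and the blood and oviduct sums that also varied (236.8 to 1237 and 18.89 to 129.1 CPM), are part of whole-organ libraries, and their part in the ovary to brain differences was not tested.

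By likeness over the 14 ovaries (Pearson r of log2 CPM + 1, described with no test), the genes nearest to Prlr were Bckdha (r = 0.965), Ttc8 (0.964) and Syn2 (0.962). Oxtr was most like Cav2 (0.958), Grcc10 (0.955) and Agt (0.953). Gnrhr was most like Wdr48 (0.913), Rnf44 and Tnks.

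**Figure D2:**
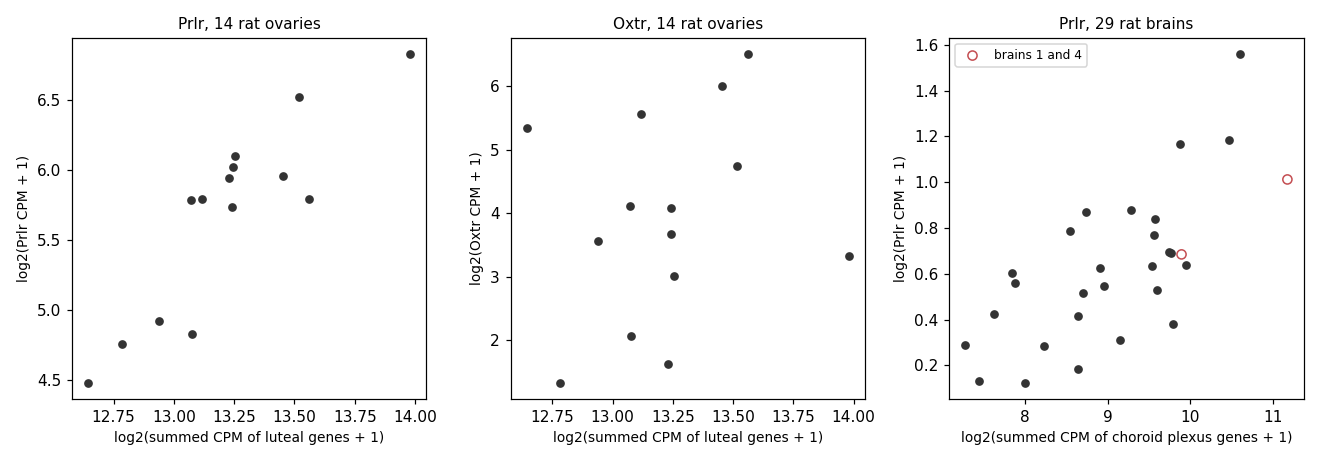
Log2(CPM + 1) of Prlr and Oxtr against the log2 summed CPM + 1 of luteal genes in 14 rat ovaries (left and middle), and of Prlr against choroid plexus genes in 29 rat brains (right; brains 1 and 4 as open circles). Prlr follows both sums (r = 0.879 and 0.704), while Oxtr has r = 0.226.

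In rat sperm, Prlr and Kiss1 were higher than in the male brain, and Oxtr, Kiss1r, Tac3 and Tacr3 were lower. Of the 9 genes, 6 passed the filter and all 6 were called, beside 59.1% of 20480 genes tested (27.7% higher and 31.5% lower).

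Prlr was 2.252 to 15.6 CPM in the 15 sperm libraries, with a median of 10.75 and a mean of 9.80 ± 3.945 (SD, n = 15). Each sperm library held 137 to 567 Prlr counts. The male brain was 0.09061 to 1.246 CPM, with a median of 0.5405. The groups did not overlap, and the log2 fold change was 4.31 (SE 0.354, edgeR adjusted p = 1.65e-12). Prlr against the late spermatid sum had r = −0.704 (permutation p = 0.00314, adjusted 0.0397) and rho = −0.439 (permutation p = 0.104, adjusted 0.274). The value of r was −0.257 without the 2 libraries farthest from the median sum, so that relation rests on those 2. It was −0.788 without libraries 16 and 17.

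Kiss1 was 0 to 2.673 CPM in rat sperm, with a median of 0.8339 and a mean of 0.9677 ± 0.7305 (SD, n = 15), from 732 counts in all. In the male brain it was 0.0866 to 0.2808 CPM (median 0.1564). Of the 15 sperm libraries, 13 lay above every male brain, and the 2 that held no Kiss1 count were libraries 16 and 17, which had Prlr at 15.6 and 14.37 CPM. The log2 fold change was 2.74 (SE 0.471, edgeR adjusted p = 4.62e-06), and 2.94 without those 2 libraries. Kiss1 showed no relation past the threshold with late spermatid genes (r = 0.0532, permutation p = 0.847, adjusted 0.90; rho = −0.034, permutation p = 0.907, adjusted 0.977).

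The receptors and ligands that were high in brain were near 0 in rat sperm. Tacr3 was 2.238 to 6.285 CPM in male brain (median 4.506), and 0 in 10 of 15 sperm libraries and at most 0.09754 CPM in the rest (log2 fold change −7.81, SE 0.554, edgeR adjusted p = 5.02e-14). Tac3 was 6.061 to 14.63 CPM in male brain (median 7.313) and 0 to 0.4439 CPM in sperm (log2 fold change −6.00, SE 0.628, edgeR adjusted p = 4.16e-10). Kiss1r was 1.799 to 3.764 CPM in male brain (median 2.378) and 0 to 0.2302 CPM in sperm (log2 fold change −4.70, SE 0.521, edgeR adjusted p = 1.41e-09). For all 3 of these genes every sperm library was below every brain. The share of all genes that separate in this way is not given here.

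Oxtr was 1.095 to 3.024 CPM in male brain (median 2.098). No Oxtr count was found in 8 of 15 sperm libraries, but the highest reached 2.18 CPM, within the brain range. Oxtr changed by −2.38 on the log2 scale (SE 0.766, edgeR adjusted p = 0.00599). Gnrhr held 10 counts over all 15 sperm libraries and was at 0 in 11. Gnrh1 held 44 counts, and Npvf was at 0 in 11 libraries with a highest value of 0.8878 CPM. These 3 genes did not pass the filter.

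Blood genes summed to 531.5 to 16970 CPM in rat sperm and epididymal genes to 2.126 to 145.5 CPM, against at most 673.3 and 2.187 CPM in rat brain. Against the epididymal sum, Kiss1 had r = −0.511 (permutation p = 0.0514, adjusted 0.154) and rho = −0.52 (permutation p = 0.0482, adjusted 0.235), and r = −0.374 without the 2 farthest libraries. Prlr against that sum had r = 0.412 (adjusted permutation p = 0.277) and rho = 0.129 (permutation p = 0.648, adjusted 0.786), and r = −0.0408 without the 2 farthest. The part of blood RNA in the Prlr and Kiss1 differences was not tested. Among the fixed lists, 8 of 11 other ligands and 10 of 12 other receptors were lower in sperm, and 1 ligand and 0 receptors were higher. Of all genes tested in this comparison, 31.5% were lower and 27.7% higher. Of 16 signalling genes, 4 were higher and 7 lower. The largest changes under the naming rule were lower Rgs4 (log2 fold change −10.31, edgeR adjusted p = 6.8e-16) and Prkcb (−6.46, edgeR adjusted p = 3.6e-15). The next was Stat5a, which encodes a transcription factor activated by the prolactin receptor. Stat5a was 175.9 ± 69.66 CPM in sperm and 4.624 ± 0.6297 CPM in male brain (SD, n = 15 each, log2 fold change 5.34, edgeR adjusted p = 1.19e-19). A link between Stat5a and Prlr in sperm was not tested.

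Set against each other, the ovary was higher than sperm in Gnrhr, Oxtr, Tac3 and Prlr, and lower in Kiss1. All 5 genes that passed the filter were called, beside 50.8% of 19611 genes tested (27.9% higher and 22.9% lower in ovary). These gonadal samples came from animals of different sex, and the comparison shares its libraries with those against brain. Gnrhr had the greatest separation of the 5, at a log2 difference of 12.46 (SE 0.43, edgeR adjusted p = 1.97e-20). Oxtr was higher by 6.04 on the log2 scale (SE 0.966, edgeR adjusted p = 2.29e-06) and Tac3 by 4.02 (SE 0.672, edgeR adjusted p = 4.66e-06). Prlr, present in both, was higher in ovary by 2.49 (SE 0.248, edgeR adjusted p = 3.65e-10), with every ovary above every sperm library. Kiss1 fell by 1.76 on the log2 scale from sperm to ovary (SE 0.533, edgeR adjusted p = 0.00437), with overlapping groups. Kiss1r, Tacr3, Gnrh1 and Npvf did not pass the filter here.

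**Figure D3:**
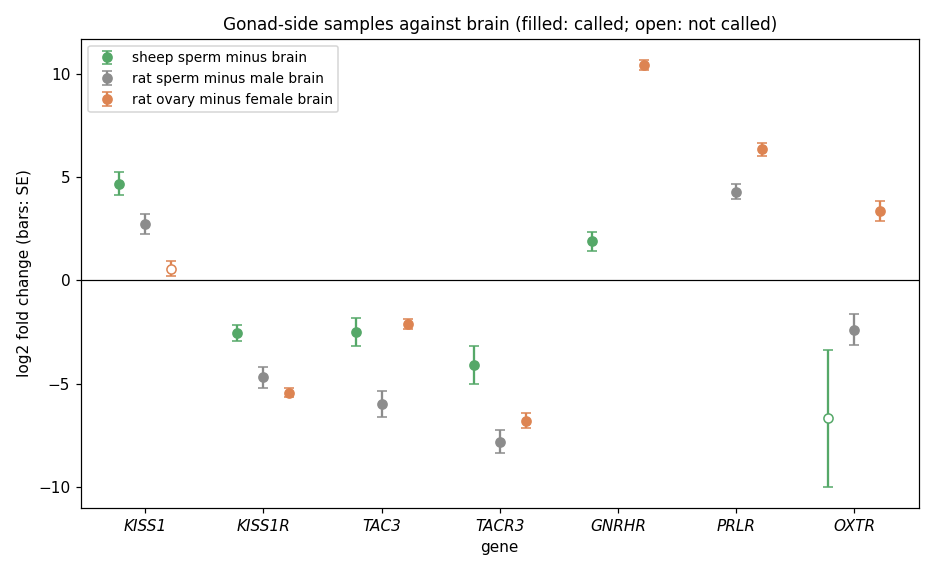
Log2 fold change (points) and SE (bars) from edgeR for each tested gene in sheep sperm minus brain, rat sperm minus male brain and rat ovary minus female brain; filled points were called and open points were not. KISS1 is above 0 in both sperm comparisons, KISS1R, TAC3 and TACR3 are below 0 in all 3, and GNRHR reaches 10.43 in the ovary. The sheep OXTR estimate comes from sperm libraries that are all at 0 and is no bound, and the sheep GNRHR point rests on sheep 694.

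None of the 9 genes was called different between the whole brains of female and male rats. After the filter 7 were tested, and 0 of 7 were called by edgeR at an adjusted p below 0.05, beside 0.18% of 20570 genes. Of the 7, 1 had an unadjusted p below 0.05 (Npvf), and DESeq2 also called 0. Over all genes edgeR called 17 higher and 20 lower in females, and 4 higher and 14 lower with plain library totals. The ovary comparison shares its female brains with this one, and the rat sperm comparison its male brains.

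Npvf had the greatest log2 difference of the 7. It was 0.0784 to 3.405 CPM in female brains (median 0.4269, mean 0.8826 ± 1.056, SD, n = 14) and 0 to 0.819 CPM in male brains (median 0.4252, mean 0.4085 ± 0.2924, SD, n = 15). The medians were close, and the female mean was raised by rats 2, 25 and 28, at 3.405, 2.961 and 1.574 CPM. The log2 difference was 1.08 (SE 0.512, edgeR adjusted p = 0.487). For the other 6 tested genes the edgeR adjusted p was 0.689 or above. Tacr3, for example, was 5.133 ± 1.627 CPM in females and 4.501 ± 1.359 CPM in males. Kiss1r was 2.808 ± 0.5528 CPM in females and 2.518 ± 0.5658 CPM in males. Gnrhr and Gnrh1 did not pass the filter. Gnrhr was 0.07553 ± 0.06852 CPM in females and 0.07774 ± 0.06971 CPM in males, and Gnrh1 0.1339 ± 0.06384 and 0.1136 ± 0.08531 CPM. A p that misses the threshold does not show that the sexes are alike.

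Npvf is made by neurons of the dorsomedial hypothalamus, and the sums of hypothalamic and pituitary genes differed widely between the whole brains. They were 11.27 to 327.2 and 0.3998 to 59.01 CPM, with Pmch and Lhb at 0 in every brain. Npvf against the pituitary sum had r = 0.415 (permutation p = 0.0229, adjusted 0.0968) and rho = 0.427 (permutation p = 0.0211, adjusted 0.153). Against the hypothalamic sum it had r = 0.384 (permutation p = 0.0401, adjusted 0.136) and rho = 0.297 (permutation p = 0.118, adjusted 0.286). How much the dissection contributed to the Npvf values was not tested.

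Brain Prlr followed genes of the choroid plexus, the epithelium that secretes cerebrospinal fluid. The 9 choroid plexus genes summed to 153.7 to 2316 CPM over the 29 brains. Prlr against that sum had r = 0.704 (permutation p = 3e-05, adjusted 0.00051) and rho = 0.671 (permutation p = 8e-05, adjusted 0.00408). The value of r was 0.677 without the 2 brains farthest from the median sum and 0.695 without brains 1 and 4. Tac3, Tacr3, Kiss1r, Oxtr and Npvf showed no relation with the choroid plexus sum past the threshold, with r from −0.367 to −0.0682 and adjusted p of 0.154 or above.

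The genes most like Prlr over the 29 brains were Clic6 (r = 0.848), Cldn2 (0.845) and Folr1 (0.826), and without brains 1 and 4 the 3 were again Clic6, Cldn2 and Folr1. Clic6 and Folr1 belong to the choroid plexus list fixed for these samples, and Cldn2, a claudin of choroid plexus tight junctions, does not. Tacr3 was most like Kcnj6 (0.901), a neuronal potassium channel gene, Slc6a17 (0.899) and Slc2a3 (0.893). Tac3 was most like Tusc3 (0.839), Pgrmc1 (0.802) and Vstm2l (0.797). These likenesses were ranked among 16087 or 16088 genes and share library depth and composition, and they carry no test.

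In the sheep brain, the ligand and receptor genes differed between dissections in their own ways. KISS1 was highest in the basal ganglia, and TAC3 was called higher in the hippocampus. OXTR was also called higher in the hippocampus, a call that was lost without sheep 690. TAC3, TACR3 and KISS1 were lower in the cerebellum, where KISS1 held 3 counts in all. Of the 8 genes, 6 passed the filter, and 7 gene and region pairs were called (3 higher and 4 lower), beside 7.63% of all gene and region pairs (3.99% higher and 3.63% lower). By region, the share of genes called was 10.3% in basal ganglia, 28.8% in cerebellum, 4.62% in hippocampus and 18.7% in pons. In an F test over the 10 regions, 5 of the 6 genes had an edgeR adjusted p below 0.05, as did 76.7% of all genes: TAC3 (7.19e-06), KISS1R (0.00065), TACR3 (0.00156), KISS1 (0.00327) and OXTR (0.0103). For GNRHR the adjusted p was 0.322.

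KISS1 in the basal ganglia was 0.2701, 0.1889, 0.4112, 0.242 and 0.2059 CPM in sheep 687, 688, 690, 694 and 699, from 72 counts. Each of those values was above the mean of every other region, the next of which was the frontal cortex at 0.1236 ± 0.1163 CPM (SD, n = 5). The ranges of these 2 regions overlapped. The log2 fold change of the basal ganglia against the other 9 regions was 2.32 (SE 0.53, edgeR adjusted p = 0.000643). At the other end, the 5 cerebella held 3 KISS1 counts in all, 2 in sheep 694 and 1 in sheep 699 (log2 fold change −2.99, SE 0.967, edgeR adjusted p = 0.00726). Without sheep 690 the cerebellar difference was −2.35 with an adjusted p of 0.0604. KISS1 in the pons (0.1231 ± 0.09295 CPM, SD, n = 5) was called when animal entered the fit as a block and under no other alternative run (log2 change 1.32, adjusted p = 0.0247).

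KISS1R was measured in every sheep brain library, from 0.6971 to 2.493 CPM (median 1.457), and its regional differences were small. The posterior parietal cortex was highest, at 1.613, 2.225, 2.23, 2.493 and 2.304 CPM in sheep 687, 688, 690, 694 and 699. Its log2 fold change was 0.69 (edgeR adjusted p = 0.00391), under the fold minimum. The cerebellum followed at 1.937 ± 0.3132 CPM (SD, n = 5; log2 fold change 0.48, edgeR adjusted p = 0.0105). The hippocampus was lowest at 1.013 ± 0.3524 CPM (SD, n = 5; log2 fold change −0.53, edgeR adjusted p = 0.0474). Every neighbouring pair in the order of regional means overlapped.

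TAC3 was highest in the hippocampus, at 3.128, 3.039, 2.054, 1.029 and 0.4612 CPM in sheep 687, 688, 690, 694 and 699 (mean 1.942 ± 1.188, SD, n = 5). Sheep 687, 688 and 690 were high there and sheep 699 lay below its own frontal cortex. Hippocampal TAC3 was higher by 1.53 on the log2 scale (SE 0.291, edgeR adjusted p = 0.000311). TAC3 was lowest in the pons (0.05425, 0.4023, 0.3698, 0.3669 and 0.1051 CPM; log2 fold change −1.64, SE 0.398, edgeR adjusted p = 0.000646) and in the cerebellum (0.1648, 0.3062, 0.1422, 0.5634 and 0.1766 CPM; log2 fold change −1.64, SE 0.394, edgeR adjusted p = 0.00041). The ranges of pons and cerebellum overlapped, and these regions were not tested against each other. The 6 cortical areas lay between, with means of 0.7325 to 1.248 CPM.

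TACR3, the receptor for the TAC3 product, was lowest in the cerebellum, at 0.2884, 0.1997, 0.2585, 0.2883 and 0.1766 CPM (log2 fold change −2.72, SE 0.597, edgeR adjusted p = 0.000135). This was the 1 region whose range was separate from its neighbour in the order of means, the prefrontal cortex (0.8837 ± 0.3698 CPM, SD, n = 5). In the other regions the animals differed widely. The entorhinal cortex had the highest mean, with values of 2.928, 0.5207, 3.117, 6.09 and 1.305 CPM in the same order of sheep, and was not called (edgeR adjusted p = 0.0948). It was called without sheep 699 (log2 change 1.44, adjusted p = 0.0442) and with plain totals (1.37, adjusted p = 0.046). The pons, not called at an adjusted p of 0.0591, was called with the animal block (1.06, adjusted p = 0.0413) and without sheep 687 (1.34) or 699 (1.13). In the motor cortex TACR3 ran from 0.1389 CPM in sheep 699 to 4.478 CPM in sheep 687, a 32.24-fold range. No animal was high throughout: sheep 687 had the highest basal ganglia value (4.534 CPM) and the lowest pons value (0.6691 CPM).

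OXTR showed single high libraries in different animals. In the hippocampus it was 0.2584, 0, 3.335, 0.03249 and 0.03843 CPM in sheep 687, 688, 690, 694 and 699, so that sheep 690 alone was high. The called difference (log2 fold change 2.01, edgeR adjusted p = 0.0285) became −0.99 without sheep 690 (adjusted p = 0.587), and it was 1.44 with an adjusted p of 0.223 when animal entered the fit as a block. In the motor cortex OXTR was 2.505 CPM in sheep 687 and 0.2381 to 0.3876 CPM in the others (edgeR adjusted p = 0.0554). That motor cortex difference was called with the animal block (2.33, adjusted p = 0.0401) and without sheep 690, 694 or 699 (edgeR adjusted p of 0.0117 to 0.0457). In the entorhinal cortex it was 1.473 CPM in sheep 694 and 0.06126 to 0.168 CPM in the others. The cerebellum had the lowest mean, 0.05888 ± 0.04103 CPM (SD, n = 5).

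**Figure D4:**
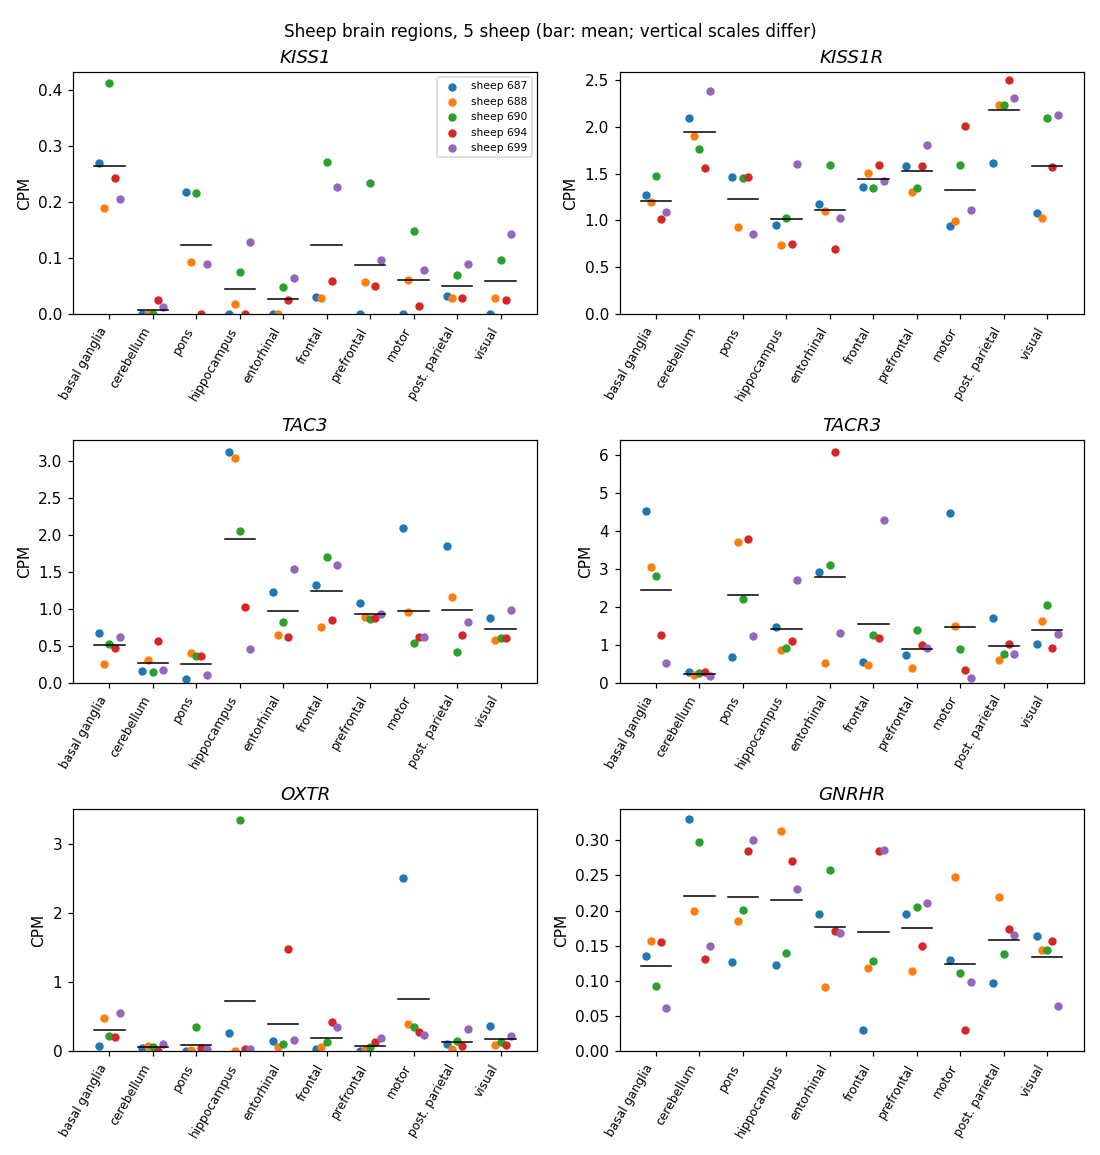
CPM of 6 genes in 10 sheep brain regions (points coloured by animal, n = 5 sheep; bars are means; vertical scales differ between panels). KISS1 is highest in the basal ganglia and TAC3 in the hippocampus, TACR3 is lowest in the cerebellum, and the OXTR means of hippocampus, motor and entorhinal cortex are each set by 1 animal at 3.335, 2.505 and 1.473 CPM.

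GNRHR was low in every region, with 0.03008 to 0.3296 CPM over the 50 brain libraries and means of 0.1207 (basal ganglia) to 0.2214 CPM (cerebellum). GNRH1 held 22 counts over the 50 libraries, was at 0 in 35 of them and never exceeded 3 counts. No GNRH1 count was seen in the entorhinal, frontal, posterior parietal or prefrontal cortex, which allows levels of up to 0.00839 to 0.0094 CPM there (3 counts over the 5 libraries of a region, counting error only). NPVF held 36 counts, was at 0 in 31 of 50 libraries and was highest in the pons, at 0.03805 ± 0.04492 CPM (SD, n = 5). Hypothalamic genes summed to 2.853 to 27.38 CPM in these dissections and pituitary genes to 0.8841 to 6.857 CPM. Neither gene passed the filter. Without it, edgeR called GNRH1 higher in pons (adjusted p = 0.0025), basal ganglia (0.018) and cerebellum (0.0174), and NPVF higher in pons (0.000968), on the few counts given.

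Other genes of the axis had regional patterns in the same fit. Of all genes tested, 10.3% were called in basal ganglia, 4.62% in hippocampus and 28.8% in cerebellum, in either direction. In the basal ganglia, 4 of 11 other ligands tested were higher and 4 lower. PDYN, which encodes dynorphin and is made with TAC3 in hypothalamic kisspeptin neurons, was 258.8 ± 92.54 CPM in basal ganglia and 14.54 ± 18.92 CPM elsewhere (log2 fold change 4.83, edgeR adjusted p = 3.06e-16). TAC1 was 244.9 ± 80.27 CPM there and 8.336 ± 4.94 CPM elsewhere (log2 fold change 5.00, edgeR adjusted p = 3.12e-23). In the hippocampus 3 of 11 ligands were higher and 0 lower, and PDYN was again among those higher, at 50.67 ± 26.7 CPM against 37.66 ± 84.6 CPM elsewhere, a mean that includes the basal ganglia (edgeR adjusted p = 6.78e-05). In the cerebellum 0 of 11 ligands were higher and 7 lower, among them NPY, at 0.07033 ± 0.1039 CPM against 27.85 ± 15.68 CPM elsewhere. Over the 10 regional means, TAC3 was most like THPO (r = 0.955), PCDH8 and PHLDB3, described with no test.

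In sheep sperm, KISS1 was higher than in brain, and KISS1R, TAC3 and TACR3 were lower. Of 8 genes, 6 passed the filter and 5 were called (2 higher and 3 lower), beside 74.2% of 21859 genes tested (33.1% higher and 41.1% lower). With plain library totals in place of TMM factors, calls over all genes moved from 7239 higher and 8976 lower to 3249 higher and 15084 lower. The median log2 fold change of all genes moved from −0.418 to −2.836. Sheep sperm levels are therefore given with their counts.

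KISS1 in sheep sperm was 0, 2.376, 2.689, 1.085 and 1.374 CPM in sheep 687, 688, 690, 694 and 699, from 0, 33, 9, 11 and 13 counts. The 50 brain libraries were 0 to 0.4112 CPM (median 0.05334). Of the 5 sperm libraries, 4 were above every brain library on the TMM scale, and sheep 687 held no count. With plain totals those 4 did not all stay above every brain library. The plain means were 0.3949 ± 0.2811 CPM in sperm and 0.09437 ± 0.1026 CPM in brain (SD, n = 5 and 50). The log2 fold change was 4.70 (SE 0.537, edgeR adjusted p = 3.26e-11), and 2.39 with plain totals (adjusted p = 0.000162). Relative to the median of all genes, KISS1 was higher under both scalings. Kiss1 was also higher in rat sperm, but kits and annotation differed between the species, and the difference between them was not tested.

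KISS1R held 10 counts over the 5 sheep sperm libraries, 8 of them in sheep 694 (0.7894 CPM) and 2 in sheep 688 (0.144 CPM). The brain was 0.6971 to 2.493 CPM, so that only sheep 694 reached its range. KISS1R changed by −2.54 on the log2 scale (SE 0.404, edgeR adjusted p = 1.53e-07) and −4.45 without sheep 694. TACR3 held 3 counts in sperm, in sheep 688 and 690, against 0.1389 to 6.09 CPM in brain (median 1.068). Its log2 fold change was −4.10 (SE 0.939, edgeR adjusted p = 9.78e-05), −5.10 without sheep 688 and −6.46 with plain totals.

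TAC3 in sheep sperm was 5 counts in sheep 687 (0.621 CPM) and 0 in the other 4. The brain was 0.05425 to 3.128 CPM (median 0.6638). TAC3 changed by −2.51 on the log2 scale (SE 0.683, edgeR adjusted p = 0.000824). Without sheep 687, whose sperm held all 5 counts, the fitted value was −8.42 and is no bound, since the remaining 4 libraries were at 0.

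GNRHR was called higher in sheep sperm, on 26 counts of which 21 came from sheep 694. The sperm values were 0, 0.288, 0.2988, 2.072 and 0 CPM, beside 0.03008 to 0.3296 CPM in brain, so that sheep 694 alone was above the brain range. The called difference, 1.89 on the log2 scale (SE 0.445, edgeR adjusted p = 0.000142) became −0.06 without sheep 694 (adjusted p = 0.987). With plain totals it was −0.26 (adjusted p = 0.633), still above the all-gene median of −2.836 under that scaling. The neuron gene sum of the sheep 694 sperm library was 19.83 CPM, between those of the other sheep. The part of neuronal RNA in the GNRHR counts of that library was not tested.

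OXTR and NPVF held no count in any of the 5 sheep sperm libraries. A floor of 3 counts over the group, 0.0668 CPM, lay 4.39-fold under the OXTR brain mean of 0.2933 CPM. The floor covers counting error only, and the OXTR brain median, 0.1204 CPM, lay nearer to it. OXTR was not called by edgeR (adjusted p = 0.0582), while it was called with plain totals (adjusted p = 0.00103), without the low-count filter (adjusted p = 0.047) and by DESeq2 (adjusted p = 0.031). The NPVF brain mean of 0.01073 CPM lay under that floor, and no fold is given. GNRH1 held 5 counts in sperm, 4 of them in sheep 694.

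Of the other ligands tested in sheep sperm, 2 of 11 were higher and 7 lower, beside 33.1% and 41.1% of all genes tested. The 2 were PROK2, a chemokine-like peptide gene, at 23.41 ± 24.73 CPM against 0.2543 ± 0.2203 CPM in brain, and AGRP, which encodes a feeding-stimulating peptide, at 19.63 ± 11.87 CPM against 0.127 ± 0.07692 CPM (SD, n = 5 and 50). NPFFR1, the receptor for RFRP peptides, was 2.416 ± 2.663 CPM in sperm and 0.1171 ± 0.1382 CPM in brain (log2 fold change 4.64, edgeR adjusted p = 6.08e-15). SOCS3, an inhibitor of cytokine receptor signalling that neutrophils express, was 267.5 ± 299.5 CPM against 0.3928 ± 0.2646 CPM. Neutrophil and squamous epithelial genes were at the sums given above in the same libraries, and their part in the KISS1 and GNRHR values was not tested.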

How the data were processed

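RNA was sequenced as 150-base paired reads from stranded mRNA libraries, made with different kits in the 2 species. Per the series' design text and the submitters' processing notes, the authors trimmed reads with Trimmomatic 0.39, aligned them with STAR 2.7.5a to ARS-UI_Ramb_v3.0 (sheep) or GRCr8 (rat) and counted them per gene with Rsubread 2.20.0. The deposited files hold raw counts, with no normalization. The strand and multi-mapping settings of the counting were not given in the sources used here.

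The counts were tested with edgeR 4.0.16 (quasi-likelihood, TMM factors, low-count filter by group, Benjamini-Hochberg over all genes tested) in R 4.3.3. Each region was set against the other 9, sperm against the mean of the 10 regions, and rat groups pairwise. Alternatives were RLE factors, plain totals, no filter, DESeq2 1.42.0, a replicate block, leaving out each sheep, leaving out rat sperm 16 and 17 and, chosen after seeing the data, leaving out rat brains 1 and 4. Sheep numbers name the animal, so they pair the sheep libraries. The main sheep fits had no term for animal and took libraries of the same sheep as independent. Only the replicate block alternative used that pairing. Replicates of a sheep group were therefore separate animals. In rat, the libraries of a group carried different numbers, and the labels do not say that a number names an animal. A rat named by its number in the text is the library with that number. Scripts were tested on simulated data. CPM and likeness (genes with a mean of at least 1 CPM, Pearson r of log2 CPM + 1) used Python 3.11.15, numpy 2.4.6 and pandas 2.3.3. By the naming rule, the text covers the 9 genes wherever they were analysed, and takes examples of each list from its up to 3 called genes with the largest fold change and at least 1 CPM in the higher group. The genes and lists were chosen with earlier results of these data known. For a single gene of the lists, a called result is not reported here.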

Additional observations from a re-analysis of the deposited data

Results flagged for a closer look

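Dixon's 95% limit was applied to 56 sheep groups of 5 libraries with a highest count of at least 10. The limit flags about 1 in 20 groups by chance if values are normally distributed, which was not tested for these CPM values. In 9 of the 56 groups, 1 library lay far from the other 4. OXTR accounted for 4 of them, in 3 animals: 2.505 CPM in the motor cortex of sheep 687 (nearest other 0.3876), 1.473 CPM in the entorhinal cortex of sheep 694 (nearest 0.168), and 3.335 CPM in the hippocampus (nearest 0.2584) and 0.3544 CPM in the pons (nearest 0.05435) of sheep 690. TAC3 was far from the others in sheep 687 in the motor cortex, at 2.102 CPM (nearest 0.9612), and in the prefrontal cortex, at 1.086 CPM (nearest 0.9253). TACR3 stood out in the frontal cortex of sheep 699, at 4.302 CPM (nearest 1.259). GNRHR was high in the sperm of sheep 694, at 2.072 CPM (nearest 0.2988), and low in the visual cortex of sheep 699, at 0.06385 CPM (nearest 0.144).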

How the results depend on the processing

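Of 38 tested results on single genes, 30 kept their direction and call under every alternative run, and 8 did not: KISS1 in cerebellum, OXTR in hippocampus, GNRHR and OXTR in sheep sperm, and 4 sex differences that were never called. For sheep regions, the 38 hold only the pairs called in the main fit. Some pairs not called there were called under an alternative. OXTR was called lower in cerebellum by DESeq2 (−2.05, adjusted p = 0.0272) and lower in pons by edgeR without sheep 690 (−2.73, adjusted p = 0.0396). Other such pairs are named below or with their genes. The number of called gene and region pairs in sheep brain was 7, and it was 11 without the low-count filter, which added GNRH1 in 3 regions and NPVF in the pons. Leaving out each sheep in turn gave 7 to 11, the highest without sheep 699, where TACR3 in basal ganglia, entorhinal cortex and pons and OXTR in motor cortex were added. Hippocampal OXTR ran from −0.989 (without sheep 690) to 2.51 when single sheep were left out, and was 2.04 by DESeq2 with an adjusted p of 0.0571. With the animal as a replicate block it was 1.44 (adjusted p = 0.223), and the block added calls for OXTR in the motor cortex and for TACR3 and KISS1 in the pons, giving 9 pairs. It changed no call of the 9 genes in the sperm and ovary comparisons with brain. For sheep sperm GNRHR, the value was −0.26 with plain totals, which moved the median of all genes from −0.418 to −2.836, and ran from −0.0579 (without sheep 694) to 2.23 when single sheep were left out. With plain totals the sex differences of KISS1R (−0.0835), OXTR (−0.0722), TAC3 (−0.181) and TACR3 (−0.0589) turned negative, none of them called, while the median of all genes moved to −0.222. These sign changes under plain totals go with a shift of all genes. The cause of the other changes was not tested. Of the 9 genes, 5 were called in sheep sperm (4 to 5 when single sheep were left out, 7 without the filter and by DESeq2), 6 in rat sperm (8 under both) and 6 in ovary (7 under both). Calls over all genes moved by over 1.5 times without the filter, where more genes were tested (rat sperm 12111 to 22067, ovary 11832 to 18799, ovary against sperm 9971 to 19449), by DESeq2 (rat sperm 18371, ovary against sperm 16112, sexes 37 to 153), and between the sexes with plain totals (18) or without brains 1 and 4 (74). Plain totals moved the median log2 change of all genes from −0.032 to −0.350 in rat sperm, from 0.019 to 0.298 in ovary and from 0.119 to 0.432 in ovary against sperm. Rat replicate numbers were not used as pairs in the main fits, only in the replicate block alternative. Deviations of same-numbered libraries correlated over 0.1 in 4 of 15 sperm and brain pairs and 1 of 14 ovary and brain pairs. In these comparisons, 3 and 2 libraries correlated best with their own number. The 3 counts of sheep sperm TACR3 and the empty OXTR libraries limit those values.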
